A study of Mus musculus with 6 samples.

Results

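The genes described here serve cytosolic protein synthesis. Most make the initiation factors of the eIF1 to eIF6 families (Eif genes), the elongation factors (Eef genes) or the cytosolic aminoacyl-tRNA synthetases. Genes that restrain or modify these factors and share their symbol stems, such as Eif4ebp1, Eif4ebp2, Eef2k and Eef1akmt1, are counted among the members. They were chosen by gene symbol, from probe sets that the array annotation assigns to exactly 1 gene, and the kinases of the Eif2ak family were left out. The rule gave 81 probe sets for 62 of the 8251 named genes on the array. Of these, 56 genes were bright enough to be tested, each read here through its probe set with the highest mean signal.

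Gene expression was measured on 6 one-colour Affymetrix arrays, 1 per RNA sample, in NIH3T3 mouse fibroblasts, an immortalised line. All samples carried c-myc and Ha-ras, both oncogenes, on a Tet-off promoter, which doxycycline silences. All also made, constitutively, IRF-1hER, in which the interferon-induced transcription factor IRF-1 is held inactive until estradiol is added. The titles of the 3 replicate 1 arrays carry the line designation 35/1-22 and those of the replicate 2 arrays carry none, and whether both sets came from 1 line or clone is not stated. The labels do not say whether replicates were separate cultures, so p-values cover no more than the variation among these arrays. The doxycycline group (2 arrays, 2 µg/ml) had the oncogenes off. The withdrawal group (2 arrays) had no drug and so the oncogenes on. The estradiol group (2 arrays) was grown without doxycycline and with estradiol for 48 h (labelled 1 mM). Doxycycline replicate 2 carries estradiol in its title but not among its treatments, and it was kept in the doxycycline group. Doxycycline itself differs between the doxycycline group and the others, and estradiol may act other than through IRF-1hER, so these effects cannot be told apart from those of the oncogenes and of IRF-1.

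Translation starts when eIF2 brings the initiator tRNA to the small ribosomal subunit, eIF3 holds the complex together, and the eIF4 factors load it onto the capped mRNA. Elongation factors then deliver charged tRNAs and move the ribosome along. The synthetases charge each tRNA with its amino acid. Many of these genes are known as targets of Myc, which binds the E-box, and several synthetase genes as targets of ATF4, which binds the amino acid response element.

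Because Myc is under the control of doxycycline here, the promoters of the members were searched for these letters. RefSeq windows (GRCm38.p6) of 250 bases before and 50 after the start were found for 47 of the 62 genes, in 61 windows. The E-box CACGTG, which reads the same on both strands, was in 26.2% of the members' windows, against 7.15% of all 32851 windows and 10.5% of the windows of tested genes. The amino acid response element core TGATGNAA, on either strand, was in 11.5%, against 3.97% and 2.07%. An interferon regulatory factor element, GAAA and any 2 bases followed by GAAA, on either strand, was in 4.92%, against 3.44% and 2.85%. A match is a description of the letters and not a site of binding. The stretches that follow show the E-box in Eif4a1, a cap-complex helicase, in Farsb and Iars, which are synthetases, and in the elongation factor Eef2. They then show the amino acid response element, as its reverse complement, in the synthetases Gars and Tars and in Eif2s3x, a subunit of eIF2. Each is written 5′ to 3′ on the strand of the gene and lies before its annotated start, with the motif in capitals.
Eif4a1 (chr11:69672585-69672634, minus strand): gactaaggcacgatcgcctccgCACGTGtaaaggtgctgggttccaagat
Farsb (chr1:78488909-78488958, minus strand): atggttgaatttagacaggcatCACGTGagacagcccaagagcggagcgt
Iars (chr13:49682039-49682088, plus strand): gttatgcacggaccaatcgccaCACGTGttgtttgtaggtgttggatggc
Eef2 (chr10:81176566-81176615, plus strand): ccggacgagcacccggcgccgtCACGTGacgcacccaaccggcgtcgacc
Gars (chr6:55037949-55038000, plus strand): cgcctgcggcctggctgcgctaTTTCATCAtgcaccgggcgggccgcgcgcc
Tars (chr15:11399659-11399695, minus strand): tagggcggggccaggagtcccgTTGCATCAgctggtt
Eif2s3x (chrX:94212718-94212769, minus strand): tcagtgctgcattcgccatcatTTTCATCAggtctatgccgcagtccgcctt

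The signals are MAS5 values, the brightness of a probe set on a linear scale, with medians of 49.5 to 52.6 per array. Fold changes are on the log2(signal + 32) scale, where the added 32 shrinks differences of dim probe sets. The fibroblast label was checked against 8 markers, of which 7 were tested. Their summed signal was 24325 to 25064 with doxycycline, 19483 to 22623 after withdrawal and 14947 to 19513 with estradiol, and the part of this shift in the results was not tested. Vim had dim signals, from 5.9 to 40.7. The summed signals of the other marker lists were 145 to 226 for 5 epithelial, 516 to 562 for 5 leukocyte, 40 to 85 for 4 endothelial, 108 to 219 for 3 muscle and 308 to 696 for 3 neuronal genes. Epcam, Ptprc, Cdh5 and Snap25 had signals of at most 8.1. Other markers of these lists were brighter, at 76.6 to 172 for Cdh1, 257 to 379 for Cd14, 81.8 to 155 for Csf1r, 70.1 to 132 for Cd68, 283 to 663 for Tubb3, 53.6 to 88.2 for Myod1 and 33.8 to 108 for Myog, and their part in the results was not tested. Of 7453 tested probe sets, 16 were at least 2-fold apart between withdrawal replicate 1 and estradiol replicate 1, and 242 to 1078 in every other pair of arrays. Between the 2 arrays of a group these were 920 for withdrawal, 283 for doxycycline and 250 for estradiol. Withdrawal replicate 1 and estradiol replicate 1 were thus more alike than any 2 arrays of 1 group, and the withdrawal group holds unlike arrays.

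Across the arrays, the members stood high on 3 arrays and low on the other 3, and the withdrawal arrays were split between these. The median deviation of the 56 members from their own means was -0.23 and -0.26 on the 2 doxycycline arrays, 0.18 and 0.31 on the estradiol arrays, and 0.19 and -0.24 on withdrawal replicates 1 and 2. Over all 5662 tested genes these medians lay between -0.01 and 0.01. Withdrawal replicate 1 thus lay with the estradiol arrays, and withdrawal replicate 2 at the level of the doxycycline arrays. From withdrawal replicate 1 to estradiol replicate 1 the median difference of the members was -0.02, and from withdrawal replicate 2 to estradiol replicate 2 it was 0.37.

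**Figure D1:**
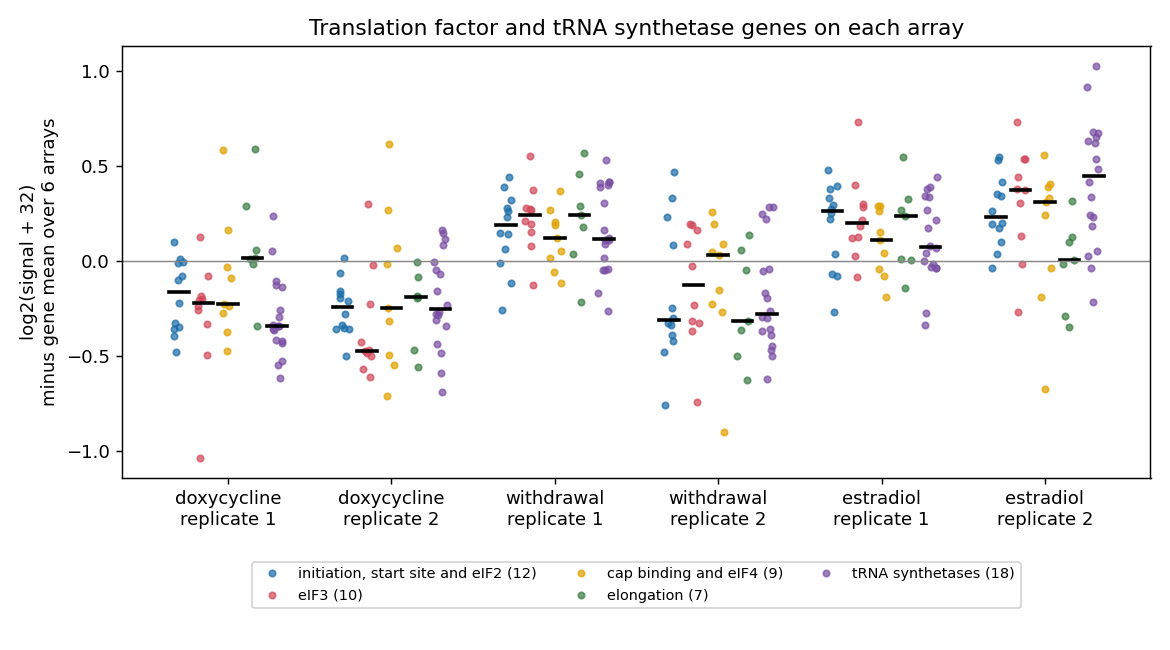
Each point is 1 of 56 tested genes, coloured by role, and shows log2(signal + 32) minus the gene's mean over the 6 arrays, with a black bar at the median of each role. Over all 56 genes the medians are -0.23 and -0.26 on the doxycycline arrays, -0.24 on withdrawal replicate 2, and between 0.18 and 0.31 on the other 3 arrays.

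The comparison of estradiol with doxycycline sets oncogenes on and estradiol against oncogenes off. Translation genes were higher with estradiol in 50 of 56 cases, with a median log2 fold change of 0.46 against 0.00 for all tested genes. Both estradiol arrays lay above both doxycycline arrays for 33 members, 58.9% of them, against 27.2% of all genes. Both lay below for 2 members, Eif4a2 and Sars, against 25.3% of all genes. Unadjusted p-values under 0.05 were found for 12 higher and 1 lower member, where 8.44% and 5.76% of all genes were higher and lower. Limma called 0 members after Benjamini-Hochberg adjustment, with a smallest adjusted p of 0.255, and called 0.0% of the 7453 probe sets. The member medians were 0.36 within replicate 1 and 0.55 within replicate 2, and stayed between 0.40 and 0.51 when any 1 of the 4 arrays was left out. Without doxycycline replicate 2, the array whose title names estradiol, the median was 0.45, and 48 of 56 members were higher, against 51.3% of all genes.

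The start-site and eIF2 group held the 12 tested genes of eIF1, eIF2, eIF2B, eIF5 and eIF6. All 12 were higher with estradiol than with doxycycline, with a median of 0.44. Both estradiol arrays were above both doxycycline arrays in 8 of 12, or 66.7%, against 27.2% of all genes. Eif1ax, which encodes the start-scanning factor eIF1A, gave 298 and 329 on the doxycycline arrays, 526 and 356 on the withdrawal arrays and 516 and 640 on the estradiol arrays. Both estradiol arrays lay well above doxycycline, and withdrawal replicate 2 lay near it. For estradiol against doxycycline its log2 fold change was 0.81 (SE 0.30, adjusted p = 0.305 with limma), and a second, dimmer probe set gave 1.08. Eif5, the GTPase activator of eIF2, gave 181 and 181 on the doxycycline arrays, 309 and 172 on the withdrawal arrays and 297 and 362 on the estradiol arrays, a difference of 0.76 (SE 0.31). Withdrawal replicate 1 lay within the range of the estradiol arrays and withdrawal replicate 2 below both doxycycline arrays. Eif6, which keeps the large ribosomal subunit from joining too early, gave 345 and 397 on the doxycycline arrays, 531 and 312 on the withdrawal arrays and 572 and 606 on the estradiol arrays (0.63, SE 0.31). Its signal on withdrawal replicate 2 was the lowest of the 6 arrays.

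Subunits of eIF2 and of its exchange factor eIF2B stood between 0.08 and 0.57. Eif2b5, the catalytic subunit of eIF2B, gave 491 and 470 on the doxycycline arrays, 764 and 432 on the withdrawal arrays and 769 and 621 on the estradiol arrays, a difference of 0.50 (SE 0.33) between estradiol and doxycycline. Its other probe set gave 0.32. Eif2b1, Eif2b2 and Eif2b4 stood at 0.36, 0.42 and 0.08. Eif2s3x, the gamma subunit of eIF2, stood at 0.47, with signals from 1287 to 2042. For Eif2s2, the beta subunit, the probe sets disagreed, with 0.57 for the brighter and 0.00 for the dimmer, with signals from 27.1 to 86.3 over both. Eif1a, Eif1b and Eif5b, which joins the subunits, stood at 0.18, 0.30 and 0.19, and for these 3 genes the groups overlapped.

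The eIF3 genes, subunits of the scaffold that holds the initiation complex, included the member with the largest log2 fold change. Higher values with estradiol than with doxycycline were measured in 9 of 10 genes, with a median of 0.55. Above without overlap lay 8 of 10, or 80.0%, against 27.2% of all genes. Eif3j1, a loosely bound subunit near the mRNA channel, gave 85.7 and 126 on the doxycycline arrays, 322 and 155 on the withdrawal arrays and 368 and 368 on the estradiol arrays. Estradiol was thus 2.93-fold higher on the fitted scale, or 1.55 as a log2 fold change (SE 0.35, limma adjusted p = 0.255). Leaving out any 1 of the 4 arrays kept its value between 1.34 and 1.77. In a limma fit on those 4 arrays alone it passed with an adjusted p of 0.0366, while with a replicate block it did not, at 0.201. The share of all probe sets that passed in the fit on 4 arrays was not counted.

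Other eIF3 subunits differed mainly in where the withdrawal arrays lay. Eif3b, a core subunit, gave 889 and 885 on the doxycycline arrays, 1650 and 1011 on the withdrawal arrays and 1678 and 1850 on the estradiol arrays (0.97, SE 0.31). Eif3l had 1760 and 1460, 2463 and 1618, and 2481 and 2773 in the same order of groups (0.70, SE 0.31). For both genes withdrawal replicate 2 was far below withdrawal replicate 1. Eif3a, the largest subunit, had 264 and 234, 360 and 385, and 347 and 508 (0.69, SE 0.29), and Eif3e had 210 and 163, 299 and 299, and 284 and 326 (0.63, SE 0.26). In Eif3a and Eif3e, as in Eif3b, both withdrawal arrays lay above both doxycycline arrays, while in Eif3l these groups overlapped. Eif3d, Eif3k and Eif3m stood between 0.41 and 0.46, and Eif3c at 0.27. Eif3f, a dim probe set with signals from 8.9 to 52.4, was the sole lower one at -0.20.

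In the cap-binding group the helicase paralogues Eif4a1 and Eif4a2 had opposite signs. Eif4a1, the main RNA helicase of the cap complex, gave 218 and 170 on the doxycycline arrays, 305 and 282 on the withdrawal arrays and 287 and 354 on the estradiol arrays. Eif4a2, its paralogue, gave 845 and 862 on the doxycycline arrays, 507 and 467 on the withdrawal arrays and 481 and 334 on the estradiol arrays. All 4 arrays without doxycycline lay above both doxycycline arrays for Eif4a1 and below both for Eif4a2, including withdrawal replicate 2. The log2 fold changes were 0.64 (SE 0.27, adjusted p = 0.345 with limma) and -1.03 (SE 0.29, adjusted p = 0.255) for estradiol against doxycycline. For withdrawal against doxycycline they were 0.54 (SE 0.27) and -0.77 (SE 0.29). For Eif4a2 that value stayed between -0.83 and -0.71 without any 1 of the 4 arrays. Each gene is read by 1 probe set, and how far these read the other paralogue was not tested. The probe set of Eif4a1 is of the type marked r, for which the usual rules of probe choice were relaxed.

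**Figure D2:**
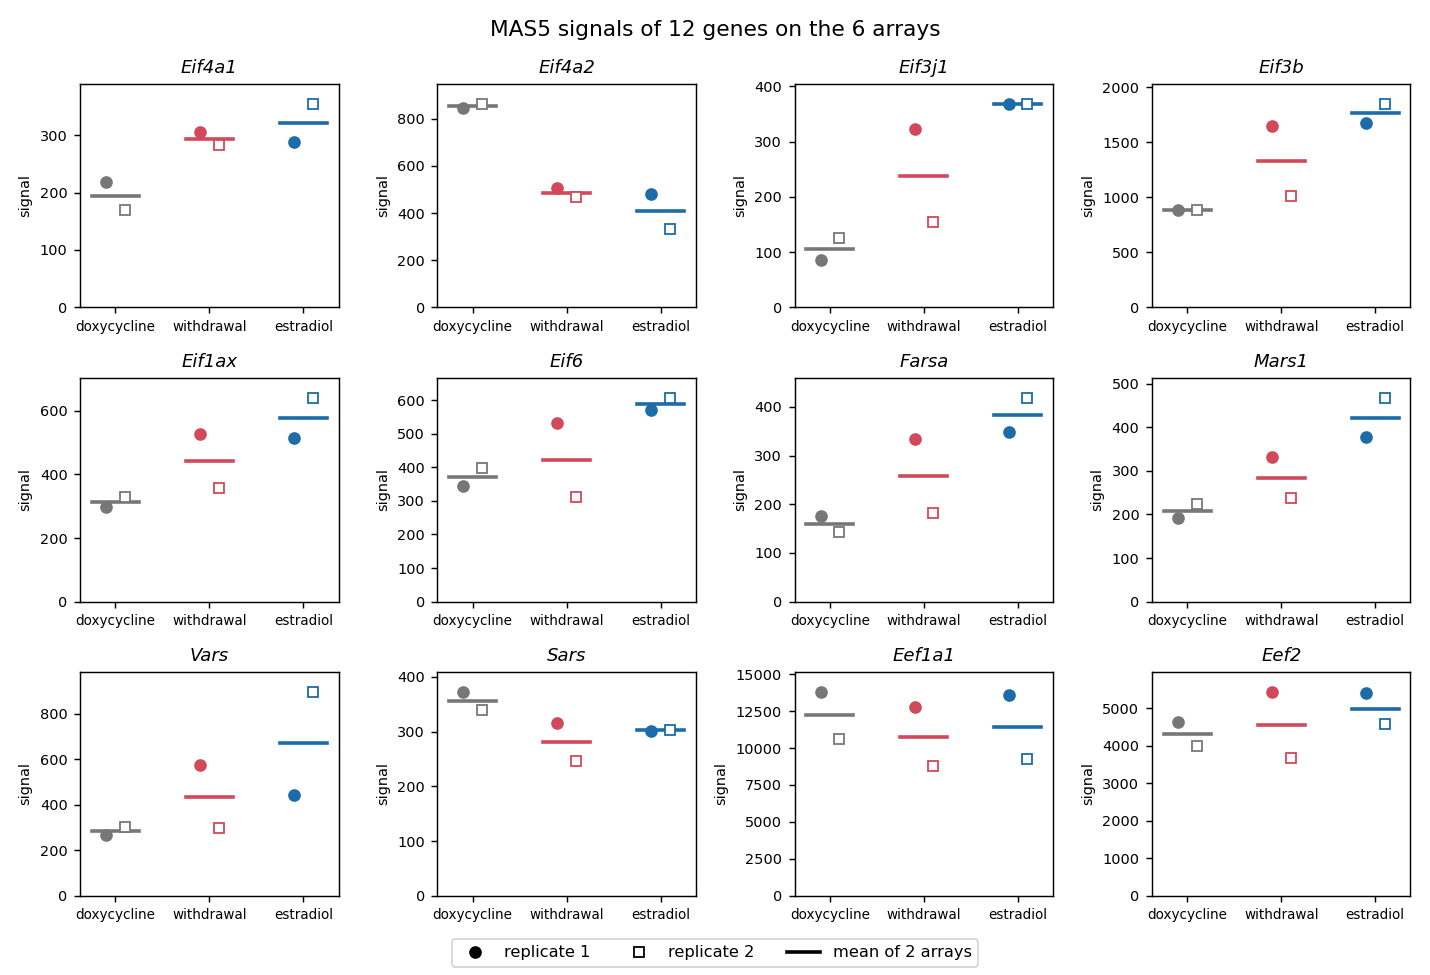
MAS5 signals of 12 genes in the 3 groups, with filled circles for replicate 1, open squares for replicate 2 and bars at the mean of 2 arrays. Eif4a2 has 845 and 862 with doxycycline and between 334 and 507 on the other 4 arrays, while Eif3j1 has 85.7 and 126 with doxycycline and 368 on both estradiol arrays.

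Over the whole cap-binding group, both helicases included, 7 of 9 genes were higher with estradiol than with doxycycline, with a median of 0.49. Above without overlap lay 5 of 9, or 55.6%, against 27.2% of all genes. Eif4b, which helps the helicase, gave 1483 and 916 on the doxycycline arrays, 1830 and 1363 on the withdrawal arrays and 1860 and 1918 on the estradiol arrays (0.68, SE 0.33), and its other tested probe set gave 0.72. Eif4g3, a scaffold of the cap complex, had 46.4 and 59.5, 93.3 and 97.9, and 101 and 73.8 (0.49, SE 0.25), so all 4 arrays without doxycycline were above both arrays with it. Eif4e, the cap-binding protein itself, was dim, with signals from 15.6 to 41.1, and stood at 0.24 (SE 0.27) with overlapping groups. Eif4ebp1, the repressor that binds eIF4E, gave 122 and 152 on the doxycycline arrays, 208 and 67.7 on the withdrawal arrays and 191 and 242 on the estradiol arrays (0.56, SE 0.41). The withdrawal arrays were its highest but one and its lowest value. Eif4ebp2 stood at 0.49, and its 2 other probe sets at 0.19 and 0.34. Eif4g2 stood at 0.30, and Eif4e2 at -0.10 by its brighter and 0.30 by its dimmer probe set.

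The elongation group, which also holds the modifying enzymes Eef2k and Eef1akmt1, lay closest to 0. Its median was 0.13 over 7 genes, of which 5 were higher. Above without overlap lay 2 of them, Eef1d and Eef2k, or 28.6%, which is near the 27.2% of all genes. Eef1a1, the factor that delivers charged tRNAs, gave 13779 and 10644 on the doxycycline arrays, 12770 and 8781 on the withdrawal arrays and 13591 and 9226 on the estradiol arrays. In every group replicate 2 was the lower, and the groups overlapped (-0.11, SE 0.32). Its sign turned with quantile normalization, which gave 0.05. Eef2, the factor that moves the ribosome, had 4636 and 4008, 5430 and 3673, and 5398 and 4593 (0.21, SE 0.30), again with the lower value in replicate 2 of each group. Replicates 1 and 2 also differ in the RNA extraction method. Eef1a2, a paralogue of Eef1a1 found mainly in muscle and neurons, gave 61.2 and 48.9 on the doxycycline arrays, 95.0 and 64.1 on the withdrawal arrays and 61.1 and 40.6 on the estradiol arrays, and stood at -0.08 (SE 0.27). Eef1d, of the exchange complex for eEF1A, had 749 and 538, 1140 and 480, and 1122 and 750 (0.51, SE 0.43). Eef2k, the kinase that restrains eEF2, had signals from 49.1 to 97.1 and stood at 0.39 (SE 0.27). Eef1b2, also of the exchange complex, stood at 0.07 (SE 0.43), and Eef1akmt1, a methyltransferase of eEF1A that shares the symbol stem, at 0.13 (SE 0.24), both with overlapping groups.

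The synthetases were higher with estradiol in 17 of 18 genes, with a median of 0.56. Above without overlap lay 10 of 18, or 55.6%, against 27.2% of all genes. Farsa, the alpha subunit of the phenylalanine enzyme, gave 176 and 142 on the doxycycline arrays, 335 and 182 on the withdrawal arrays and 349 and 418 on the estradiol arrays, a 2.17-fold difference between estradiol and doxycycline (log2 1.12, SE 0.32, adjusted p = 0.257 with limma). Farsb, the beta subunit, had 64.8 and 50.4, 103 and 119, and 92.1 and 148 (0.74, SE 0.28). In Farsb both withdrawal arrays lay near the estradiol arrays, whereas in Farsa withdrawal replicate 2 lay near doxycycline. Mars1, the methionine enzyme, had 193 and 224, 331 and 238, and 377 and 467 (0.91, SE 0.28). Vars, the valine enzyme, had 265 and 304, 574 and 297, and 445 and 895 (1.08, SE 0.41). Both estradiol arrays of Vars lay above both doxycycline arrays, with replicate 2 well above replicate 1.

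The histidine, isoleucine, tyrosine, glutamate-proline, glutamine, leucine and glycine enzymes followed. Hars had 135 and 119, 173 and 214, and 174 and 305 (0.73, SE 0.31), and Iars had 416 and 420, 694 and 326, and 684 and 701 (0.69, SE 0.36). The signal of Iars on withdrawal replicate 2 was below both doxycycline arrays. Yars, Eprs, Qars, Lars and Gars stood between 0.51 and 0.64, with overlapping groups for Eprs and Gars, and a dim second probe set of Yars went the other way at -0.57. Wars, also known as an interferon-induced gene, gave 348 and 375 on the doxycycline arrays, 373 and 522 on the withdrawal arrays and 328 and 673 on the estradiol arrays (0.36, SE 0.37). Its estradiol arrays were the lowest and the highest of the 6. Aars, Cars, Nars, Rars and Tars stood between 0.05 and 0.32. Sars, the serine enzyme, had 372 and 340, 315 and 247, and 302 and 303, and was lower at -0.21 (SE 0.26) with no overlap between the groups.

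**Figure D3:**
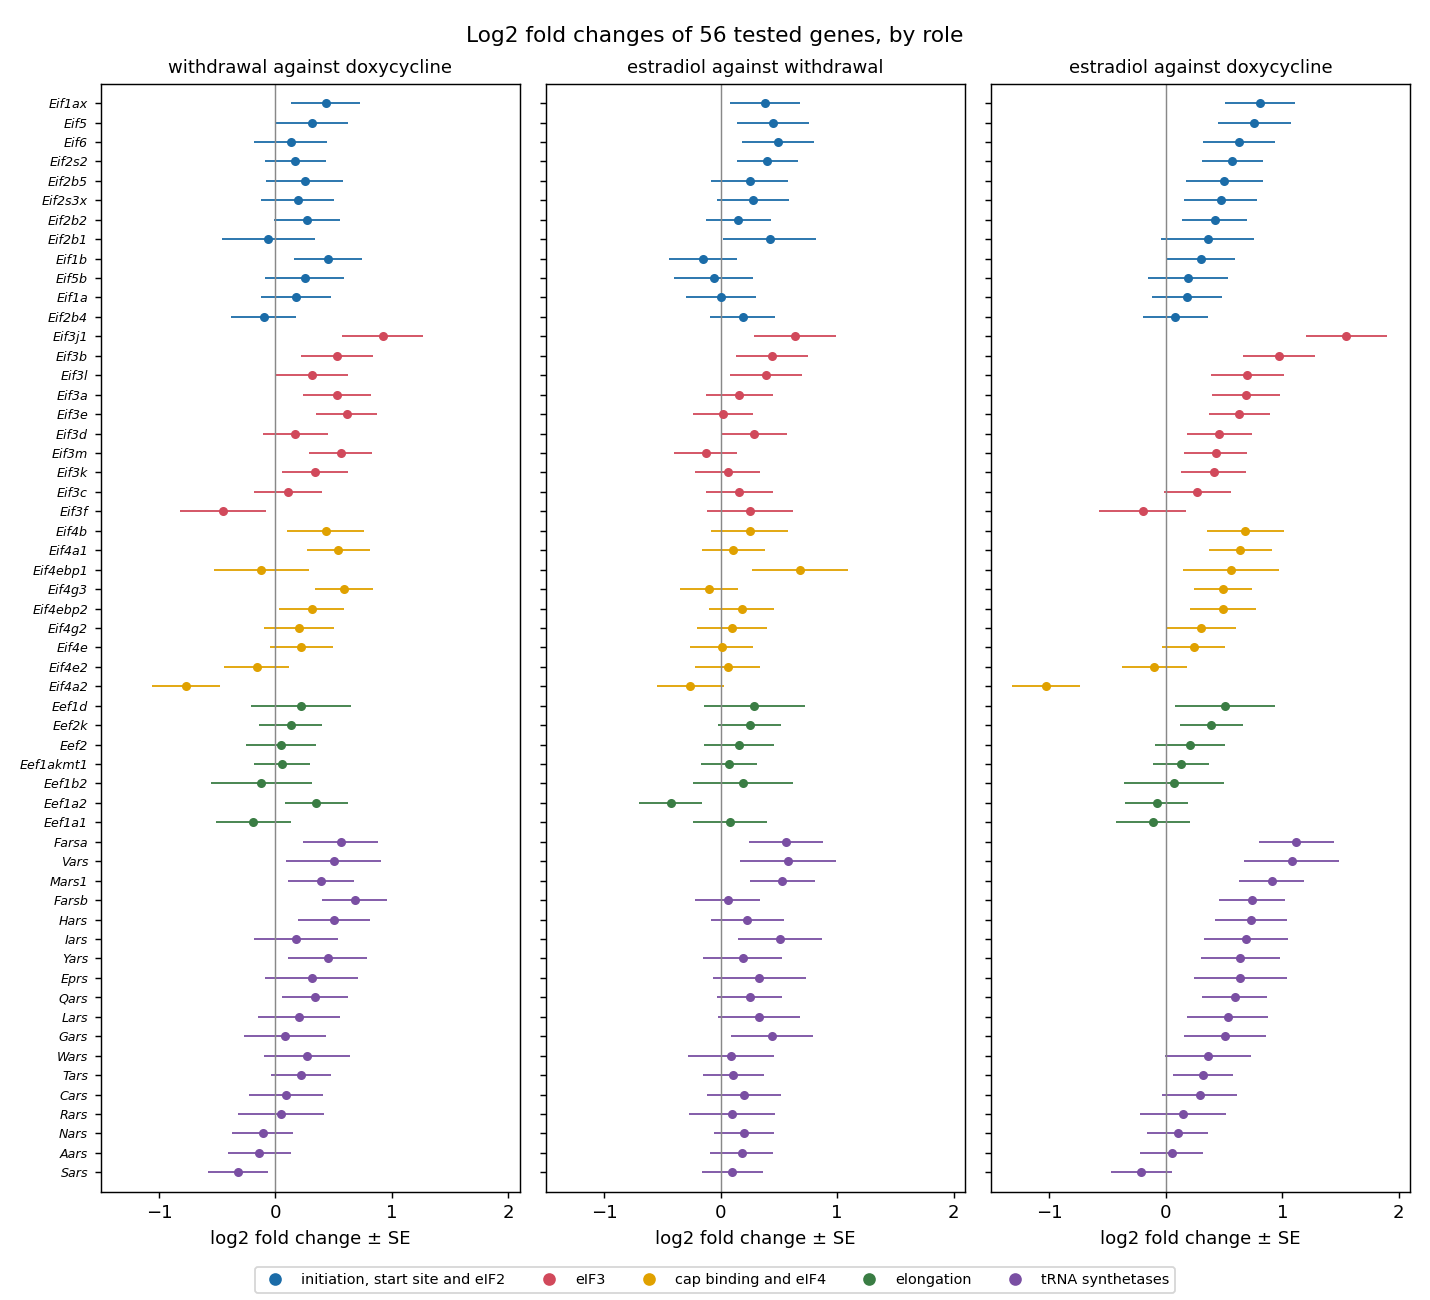
Log2 fold changes with standard errors from limma for 56 tested genes in 3 panels, 1 per comparison, coloured by role and ordered within a role by the third. In the panel of estradiol against doxycycline 50 of 56 genes lie to the right of 0, from Eif4a2 at -1.03 to Eif3j1 at 1.55.

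The comparison of withdrawal with doxycycline asks what the oncogenes change. Members were higher after withdrawal in 45 of 56 cases, with a median of 0.22 against 0.02 over all tested genes. Both withdrawal arrays lay above both doxycycline arrays for 20 members, 35.7%, against 16.8% of all genes, and below for 2, Eif4a2 and Sars, against 14.9%. Unadjusted p-values under 0.05 were found for 4 higher members, namely Eif3j1, Farsb, Eif4g3 and Eif3e, and Eif4a2 was the 1 lower (2.15% and 2.31% of all genes). Limma called 0 members, with a smallest adjusted p of 0.925, and called 0.0% of all probe sets. Farsb stood at 0.68 (SE 0.28), Eif3j1 at 0.92 (SE 0.35), Eif3e at 0.61 (SE 0.26) and Eif4g3 at 0.59 (SE 0.25).

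The size of this difference rested on which withdrawal array was used. The member median was 0.39 within replicate 1 and 0.11 within replicate 2. Without withdrawal replicate 2 it was 0.43, with 51 of 56 members higher (91.1%, against 49.6% of all genes). It was 0.10 without withdrawal replicate 1, with 33 of 56 higher (58.9%, against 52.8% of all genes). The synthetases had a median of 0.49 within replicate 1 and -0.04 within replicate 2. For the eIF3 genes these values were 0.43 and 0.22, and for the cap-binding group they were 0.30 and 0.35. The start-site and eIF2 group had 0.41 and -0.02, and the elongation group 0.13 and 0.06. Among the synthetases, Iars stood at -0.33 without withdrawal replicate 1, against 0.18 with all arrays.

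The comparison of estradiol with withdrawal asks what IRF-1 activation changes while the oncogenes are on. Members were higher with estradiol in 50 of 56 cases, with a median of 0.19 against 0.00, but 10 members lay above without overlap, 17.9% against 11.4% of all genes, and 1, Eef1a2, lay below (10.4%). Unadjusted p-values under 0.05 were found for 0 members in either direction, and for 0.406% and 0.3% of all genes in the higher and the lower direction. Limma called 0 members, with a smallest adjusted p of 1.00, and 0.0% of all probe sets. The median was -0.02 within replicate 1, the pair of arrays with 16 probe sets at least 2-fold apart, and 0.37 within replicate 2. Without withdrawal replicate 2 it was 0.05, with 34 of 56 members higher (60.7%, against 50.6% of all genes). It was 0.37 without withdrawal replicate 1, with 46 of 56 higher (82.1%, against 49.6% of all genes). Without estradiol replicate 2 it was 0.12 and without estradiol replicate 1 it was 0.26.

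By their brightest probe sets, all 18 synthetases had a positive value in the comparison of estradiol with withdrawal, from 0.06 to 0.58. Yet their median was -0.03 within replicate 1 and 0.49 within replicate 2. The dim second probe set of Yars stood at -0.50, with both estradiol signals below both withdrawal signals. Eif4ebp1 had the largest member difference, 0.68 (SE 0.41), and Eif3j1 followed with 0.64 (SE 0.35), which was 0.18 within replicate 1 and 1.09 within replicate 2. Eef1a2 stood at -0.43 (SE 0.27), with both estradiol signals below both withdrawal signals. The 3 comparisons share arrays, so their values are not independent of each other.

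**Figure D4:**
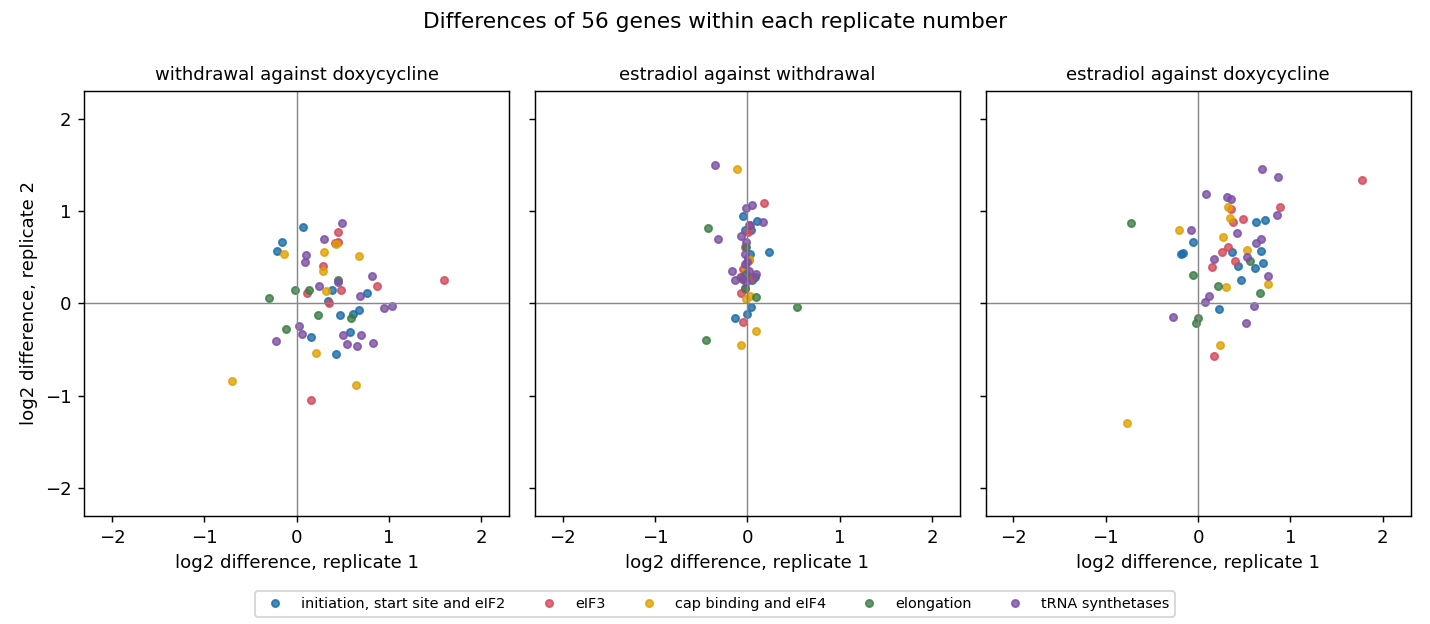
Log2 differences of 56 tested genes within replicate 1 (x axis) and within replicate 2 (y axis), in 3 panels, coloured by role. In the panel of estradiol against withdrawal the points stand along the y axis, with medians of -0.02 in replicate 1 and 0.37 in replicate 2, and in the panel of estradiol against doxycycline most lie in the upper right, with medians of 0.36 and 0.55.

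Members with a promoter motif had higher medians than those without in some comparisons and lower ones in others, and these differences were not tested. In estradiol against doxycycline the 12 tested members with an E-box had a median of 0.36 and the 30 with a window but no E-box had 0.49. After withdrawal against doxycycline these medians were 0.22 and 0.29. The 7 members with the amino acid response element core had 0.47 and the 35 without it 0.46 for estradiol against doxycycline, 0.18 and 0.31 for withdrawal against doxycycline, and 0.25 and 0.18 for estradiol against withdrawal. The 3 members with the interferon regulatory factor element had higher medians than the 39 without it in each comparison, 0.59 and 0.43, 0.34 and 0.25, and 0.25 and 0.19 in the same order. All 3 lay above without overlap in estradiol against doxycycline, as did 23 of the 39 and 27.2% of all genes. In withdrawal against doxycycline 2 of the 3 did, with 16 of the 39 and 16.8% of all genes. For estradiol against withdrawal it was 0 of the 3, with 9 of the 39 and 11.4% of all genes. For the E-box in estradiol against withdrawal the medians were 0.14 with it and 0.25 without. Of the E-box genes whose stretches are printed, Eif4a1, Farsb and Iars stood at 0.64, 0.74 and 0.69 for estradiol against doxycycline, and Eef2 at 0.21. The other tested members with an E-box ranged from -0.20 for Eif3f to 0.69 for Eif3a. The printed Eif4a1, Farsb and Iars were thus among the highest of the 12. Gars, Tars and Eif2s3x, printed for the amino acid response element, stood at 0.51, 0.32 and 0.47.

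Other genes of the pathway had smaller medians. Of 34 genes of initiation control, termination and recycling, 19 were higher with estradiol than with doxycycline, with a median of 0.03. Of the 34, 6 higher and 1 lower had an unadjusted limma p under 0.05, where 8.44% and 5.76% of all genes did. Bzw2, a protein that mimics part of eIF5, gave 298 and 223 on the doxycycline arrays, 795 and 589 on the withdrawal arrays and 889 and 1164 on the estradiol arrays (1.85, SE 0.31, adjusted p = 0.255 with limma). Pabpc4, a poly(A)-binding protein, had 350 and 319, 864 and 745, and 803 and 1548 (1.65, SE 0.35), and Dohh, which with Dhps makes the hypusine of eIF5A, stood at 0.90 (SE 0.31). Dhps itself was lower by this comparison, at -0.94 (SE 0.37), with signals of 6.8 and 38.1 on the withdrawal arrays, 7.1 and 35.4 on the estradiol arrays and up to 68.5 with doxycycline. Limma called 0 of the 34 genes in each of the 3 comparisons.

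Genes of the ATF4 amino acid response, several of which share their control element with synthetases, were split. Of 21 tested, 13 were higher and 8 lower with estradiol than with doxycycline, with a median of 0.25. Of the 21, 4 higher and 1 lower had an unadjusted limma p under 0.05, where 8.44% and 5.76% of all genes did. Psat1, of serine synthesis, stood at 1.22 (SE 0.34) and Mthfd2, of mitochondrial folate metabolism, at 1.31 (SE 0.48). Ddit3, the stress factor CHOP, gave 271 and 481 on the doxycycline arrays, 125 and 155 on the withdrawal arrays and 131 and 96.6 on the estradiol arrays (-1.45, SE 0.32). Atf4 itself stood at 0.63 (SE 0.29). For withdrawal against doxycycline 13 were higher and 8 lower (median 0.04), and for estradiol against withdrawal 14 were higher and 7 lower (median 0.13). Limma called 0 of these genes in any of the 3 comparisons, and the smallest adjusted p was 0.255.

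Members not tested were Eif4enif1, Eif4h, Eef1g, Eif5a, Eif2s3y and Kars, whose signals were at most 28.3 on any array. A dim probe set gives no level of the gene, since probe sets differ in brightness for equal amounts of RNA. Of 10 genes with several tested probe sets, Eif4e2 and Yars had opposite signs between probe sets in estradiol against doxycycline, and 1 of the 2 of Eif2s2 stood at 0.00. Signs also differed for Eif2s2, Eif4ebp2 and Yars in estradiol against withdrawal. In withdrawal against doxycycline they differed for Eif2b5, Eif4e2, Eif4ebp2 and Yars. Eif4g1 and Eif2s1, the main scaffold of the cap complex and the regulated subunit of eIF2, were not analysed here.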

How the data were processed

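Per the submitters' processing notes, the values are MAS5 signals. The deposited values are intensities on a linear scale, with trimmed means of 150.09 to 150.1 on the 6 arrays, so they had been scaled by the authors. Each array was scaled to a common trimmed mean (2% at each end), 66 control probe sets were removed, and log2(signal + 32) was taken. Probe sets in the dimmest 40% (mean signal below about 29) were dropped. For the remaining 7453, limma 3.58.1 (R 4.3.3) was fitted. It had 1 mean per group, an intensity trend and 3 residual degrees of freedom (5.23 prior). P-values were two-sided and adjusted over all tested probe sets (Benjamini-Hochberg, threshold 0.05). With 2 arrays a group, the number of arrays limits precision. The code was tested on simulated data.

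Gene names came from the platform annotation, and 0 symbols needed an update. Values per array were to be given for a fixed set of factors (such as Eif4e, Eif4a1, Eif6 and Eef2) and for the 3 smallest unadjusted p per role and comparison. Other members shown with array values (Vars, Wars and Sars where outside that rule) were chosen after their values were seen. The members, lists and named genes were chosen with earlier results of these data known. Per the labels, replicate 1 was extracted with Rneasy and replicate 2 with TRIZOL, so the numbers mark a shared extraction method. Between arrays of the same number, deviations from group means correlated at -0.00727 (doxycycline and withdrawal), -0.0284 (doxycycline and estradiol) and 0.449 (withdrawal and estradiol). Alternatives were other offsets, filters, scaling, a replicate block, fewer arrays and no trend.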

Additional observations from a re-analysis of the deposited data

How the results depend on the processing

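With 2 arrays a group, a difference must be large to pass, so 0 calls do not show that members were unaltered. The count of members past the test was 0 under the offsets of 16 and 64, both filters, quantile normalization, no trend, all tested probe sets, and without each array (lowest and highest 0). The replicate block, which pairs arrays by number, also gave 0 members in each comparison and changed no call, and the medians of 0.22, 0.19 and 0.46 were the same with it. With only the compared groups in the fit, 1 member (Eif3j1) passed in estradiol against doxycycline. Farsa, Eif3b and Eif4a2 came next among the named members, with limma adjusted p of 0.0616, 0.0716 and 0.0788 in that fit. How many of all probe sets passed in it was not counted, so this call does not set Eif3j1 apart from other genes.

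Without 1 array the median for withdrawal against doxycycline ranged from 0.10 to 0.43, for estradiol against withdrawal from 0.05 to 0.37, and for estradiol against doxycycline from 0.40 to 0.51. After the data were seen, counts were repeated in the same way. Members above without overlap numbered 26 to 40, 15 to 38 and 38 to 44 in these comparisons, and fewer arrays make overlap rarer for all genes. Without withdrawal replicate 1 the share above in withdrawal against doxycycline was 46.4%, against 39.5% of all genes, and without withdrawal replicate 2 it was 71.4% against 37.5%. For estradiol against withdrawal these shares were 67.9% against 38.1% without withdrawal replicate 1, and 26.8%, below the 29.5% of all genes, without withdrawal replicate 2. Without estradiol replicate 1 and 2 they were 57.1% and 35.7%, against 29.0% and 27.5%. For estradiol against doxycycline the shares were 67.9% to 78.6%, against 37.9% to 40.3% of all genes. The members higher numbered 33 to 51, 34 to 47 and 48 to 51 of 56, where 49.6% to 52.8% of all genes were higher.

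Of 999 alternative values for 28 named members, 35 had the other sign, and the cause was not tested. Quantile normalization gave -0.01 for Eef2 (withdrawal against doxycycline) and 0.05 for Eef1a1 (estradiol against doxycycline). The other changes of sign came with 1 array left out. For withdrawal against doxycycline the ranges were -0.46 to 0.08 for Eef1a1, -0.38 to 0.81 for Eef1d, -0.23 to 0.33 for Eef2, -0.04 to 0.31 for Eef2k, -0.14 to 0.64 for Eif2b5, -0.05 to 0.40 for Eif2s2, -0.75 to 0.52 for Eif4ebp1, -0.07 to 0.68 for Eif5, -0.22 to 0.49 for Eif6 and -0.33 to 0.69 for Iars. For estradiol against withdrawal they were -0.20 to 0.36 for Eef1a1, -0.30 to 0.89 for Eef1d, -0.12 to 0.44 for Eef2, -0.14 to 0.64 for Eif2b5, -0.09 to 0.42 for Eif3a, -0.07 to 0.11 for Eif3e, -0.03 to 0.24 for Eif4a1, -0.15 to 0.17 for Eif4e, -0.27 to 0.06 for Eif4g3, -0.21 to 0.33 for Farsb, -0.13 to 0.58 for Hars and 0.00 to 1.02 for Iars. For estradiol against doxycycline they were -0.39 to 0.17 for Eef1a1 and -0.26 to 0.10 for Eef1a2.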

Other observations

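Mitochondrial translation has its own factors and synthetases, encoded in the nucleus. Of 9 tested genes, 7 were higher with estradiol than with doxycycline, with a median of 0.21. Above without overlap lay 5 (55.6%, against 27.2% of all genes), and below lay 2 (22.2%, against 25.3%). Gfm1, a mitochondrial elongation factor, gave 146 and 145 on the doxycycline arrays, 202 and 155 on the withdrawal arrays and 197 and 282 on the estradiol arrays (0.59, SE 0.28). Tsfm had 248 and 228, 405 and 185, and 387 and 429 (0.70, SE 0.36), and Tufm stood at 0.59 (SE 0.30). The initiation factor Mtif2 (-0.45, SE 0.25) and the serine enzyme Sars2 (-0.39, SE 0.28) were lower. Limma called 0 of the 9 in any of the 3 comparisons, and 0 had an unadjusted p under 0.05. For estradiol against doxycycline, 8.44% of all genes were higher and 5.76% lower at that threshold. With 9 genes, a count of 0 cannot be told apart from these shares.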
